A study of Mus musculus with 16 samples.

Results

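Repeated CLIP peaks outside listed transcripts are places where both CTCF CLIP libraries of a day list a peak although neither nuclear RNA-seq list holds a transcript there. They were taken as composite peaks of replicate 1 overlapped by at least 1 bp on the same strand by a replicate 2 peak of the same day, with no listed transcript row of either day on either strand. There were 512 such peaks at day 3 and 1118 at day 0, 1630 in all, among 32998 repeated replicate 1 peaks and 599274 composite peaks in 4 libraries. Peak positions and listed transcripts therefore chose the members, and their number is a description without a test.

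The cells were female hybrid mouse embryonic stem (ES) cells, kept undifferentiated and adherent with LIF (day 0) or grown for 3 days without LIF as non-adherent cells (day 3). CLIP on UV-treated cells used nuclei and anti-FLAG beads. It had 2 libraries at each day, beside 1 library of nuclear RNA-seq. CTCF ChIP, with an antibody to CTCF, had 1 library at day 3 and 2 at day 0. The ChIP cells were labelled 129S1/CastEiJ x 129S1, and the other cells CAST/Ei x 129/Sv/Jae, so ChIP values come from cells with another strain label. No background stands beside the values, since the libraries without UV and the inputs of the ChIP were not analysed here. Positions are in mouse build mm9, and loci carry no gene names because the listed rows hold assembly identifiers only.

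CTCF, known best for binding DNA through its zinc fingers at the borders of chromatin domains, also contacts RNA. In CLIP, UV light joins a protein to the RNA it touches, and a peak marks where such RNA was recovered. RNA outside assembled transcripts is known to arise when polymerase runs on past the end of a gene, and upstream of promoters on the opposite strand.

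Day 3 CLIP gave 106382 peaks in replicate 1 and 165695 in replicate 2, and day 0 CLIP gave 114016 in replicate 1 and 213181 in replicate 2. Outside the listed rows lay 9.61% and 10.7% of the day 3 lists, with 11.1% of both day 0 lists. The RNA-seq lists held 28677 rows at day 3 and 40668 at day 0, while CTCF ChIP gave 41264 peaks at day 3, against 45377 and 76745 at day 0. None of the lists shows its read depth, which is unknown. The lowest listed peak score differed between replicates, at 406 and 212 at day 3 and 409 and 221 at day 0. Intervals below are exact Clopper-Pearson 95% intervals that cover counting error only, and peaks of one locus are not independent.

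Among repeated peaks of replicate 1, 4.03% (3.69% to 4.38%) lay outside the rows at day 3 and 5.51% (5.20% to 5.83%) at day 0. Counted from replicate 2, the shares were 4.05% at day 3 and 5.59% at day 0. Without a row-free stretch of chromosome 8, described below, the replicate 1 shares were 3.69% at day 3 and 5.09% at day 0. Peaks outside the rows were found again in the other replicate in a smaller share than peaks inside them. At day 3, 5.01% of outside peaks of replicate 1 and 2.86% of replicate 2 were repeated, against 12.7% and 8.13% of inside peaks. At day 0 the shares were 8.81% and 4.94% outside, against 18.9% and 10.4% inside. The 2 libraries of a day form the same pairs, so these are 2 comparisons rather than 4.

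The rule joined the lists of both days. Judged by the list of the same day alone, 950 repeated peaks lay outside at day 3, of which 438 fell in a row listed at day 0. At day 0 the number was 1677, of which 559 fell in a row listed at day 3. At the edge of the rule, 53 members at day 3 and 124 at day 0 lay within 100 bp of a row. Just inside, 48 of 12200 repeated inside peaks at day 3 and 78 of 19168 at day 0 reached partly beyond their row.

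A stretch of chromosome 8 stood apart before any other result. Between 122400889 and 126892952 neither RNA-seq list, as used here, held a row over 4492064 bp. It held 135 members (8.28%), 45 at day 3 and 90 at day 0, in 46 loci, while the next row-free gap held 23. The 4 CLIP lists had 414 and 726 peaks there at day 3 and 496 and 848 at day 0. ChIP peaks were also listed there, 222 at day 3, against 229 and 392 at day 0. With this stretch, 10.8% of the repeated peaks of chromosome 8 lay outside the rows at day 3 and 16.0% at day 0. Without it 12 and 35 members remained on that chromosome, and 467 and 1028 in all. Whether rows for this stretch are missing from the lists was not tested, so the main shares that depend on listed rows are given with and without it.

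**Figure D1:**
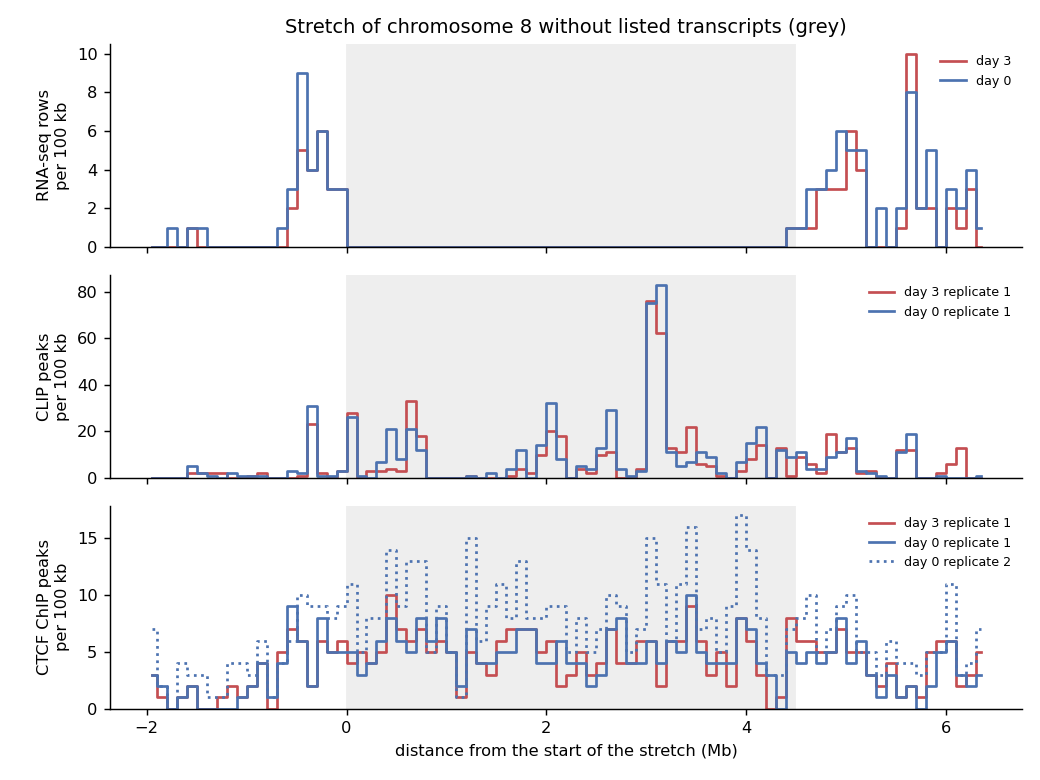
Listed RNA-seq rows (top), CLIP peaks of replicate 1 (middle) and CTCF ChIP peaks (bottom) starting in each 100 kb of chromosome 8, by distance in Mb from the start of the row-free stretch (grey), for day 3 (red) and day 0 (blue). The rows stop over the grey stretch, while 414 CLIP peaks at day 3 and 496 at day 0 are listed within it.

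Members were clustered. Joined on a strand across gaps of up to 5 kb, the 1630 members of both days formed 973 loci. Of these, 705 held a single member and 268 held more than 1, which together held 925 members (56.7%). With the days pooled, a place found at both days counted as more than 1 member, and 108 of 512 day 3 members (21.1%) overlapped a repeated day 0 peak. The share in clusters was not counted per day or compared with other peaks. There were 12 loci with at least 10 members, holding 217 (13.3%). Members of both days were present in 128 loci, of day 3 only in 236 and of day 0 only in 609. Loci with more than 1 member had a median length of 1103 bp, and the longest spanned 28516 bp. Some members of 1 library nearly touched: joined at gaps of at most 10 bp, the members made 480 sites at day 3 and 1063 at day 0.

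**Figure D2:**
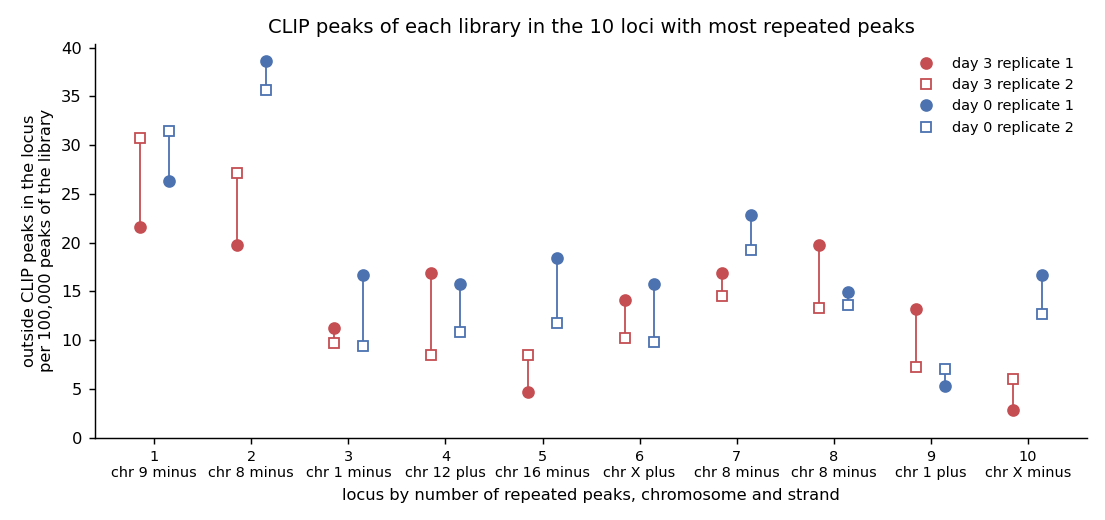
Outside CLIP peaks per 100000 peaks of the library (y axis) in the 10 loci with the most members (x axis, by rank, chromosome and strand), with day 3 in red left of day 0 in blue, filled circles for replicate 1 and open squares for replicate 2. At loci 2, 5, 7 and 10 both day 3 libraries lie below both day 0 libraries. The ranking used the members, of which day 0 had more, and how many of all features separate in this way was not counted.

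The locus with the most members lay on the minus strand at chr9:96985695-97000465, with 16 members at day 3 and 26 at day 0. Its outside peaks numbered 23 and 51 at day 3 and 30 and 67 at day 0, so the ranges overlapped. Listed rows of the same strand broke into its span, 2 at day 3 and 7 at day 0. Downstream of it lay a row of 8874 bp with FPKM (fragments scaled to transcript length and library size) of 16.27 at day 3 and 32.44 at day 0, taken here and below from the highest row that overlaps it at each day. The locus held 12 of the 98 members that overlapped a ChIP peak, more than any other.

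**Figure D3:**
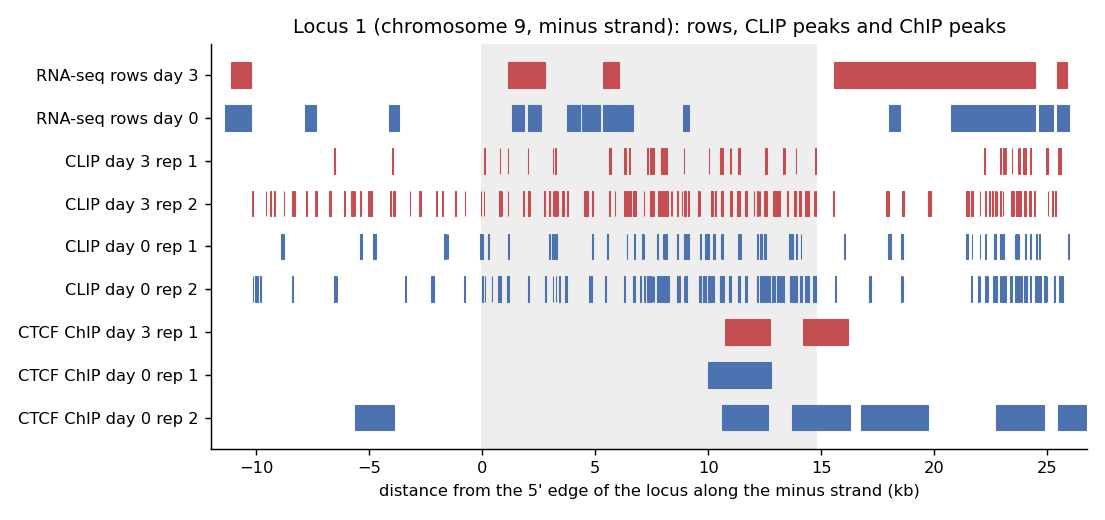
Map of the chromosome 9 locus along the minus strand, with distance in kb from its 5' edge: listed rows, CLIP peaks per library and CTCF ChIP peaks, day 3 in red and day 0 in blue, with the locus in grey. CLIP peaks of all 4 libraries fill the gaps between short rows, 23 and 51 outside peaks at day 3 and 30 and 67 at day 0.

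The row-free stretch held 3 of the 10 loci with the most members, all on its minus strand. At chr8:125535338-125563853 there were 6 members at day 3 and 21 at day 0, with 21 and 45 outside peaks at day 3 and 44 and 76 at day 0. At chr8:125416711-125432627 there were 4 members at day 3 and 12 at day 0, with 18 and 24 outside peaks at day 3 and 26 and 41 at day 0. The third, at chr8:125462684-125484295, had 6 members at day 3 and 7 at day 0, with 21 and 22 outside peaks at day 3 and 17 and 29 at day 0. In the last of these the day 0 libraries lay on both sides of the day 3 libraries.

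A pair of loci on opposite strands shared 1 place on chromosome 1. The minus-strand locus at chr1:24618661-24620664 held 11 members at each day, with 12 and 16 outside peaks at day 3 and 19 and 20 at day 0, and a row upstream of it had FPKM of 925.83 at day 3 and 920.26 at day 0. The plus-strand locus at chr1:24618460-24620763 held 9 members at day 3 and 3 at day 0, with 14 and 12 outside peaks at day 3 and 6 and 15 at day 0. Member peaks overlapped by a peak of the same library on the other strand numbered 13 of 512 (2.54%) at day 3 and 9 of 1118 (0.805%) at day 0, and all 13 and all 9 lay in this pair. Among repeated inside peaks the shares were 0.164% at day 3 and 0.0939% at day 0. Whether reads at this place also match other copies in the genome was not tested.

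At chr12:110816096-110819157 on the plus strand, 10 members at day 3 and 9 at day 0 lay downstream of a 5438 bp row. That row ended at 110815894 and had FPKM of 27.06 at day 3 and 43.86 at day 0. Another row of the same strand, 1 listed at day 0, overlapped the span. The shortest distance of a member from a listed end was 43 bp, which was not to the end of the 5438 bp row. On the other side, a 19355 bp row of the same strand had FPKM of 1123 at day 3 and 40.2 at day 0, and the nearest member lay 68 bp from a listed start. The libraries had 18 and 14 outside peaks at day 3 and 18 and 23 at day 0, which overlapped. At chrX:140762697-140769092 on the plus strand there were 8 members at each day, with 15 and 17 outside peaks at day 3 and 18 and 21 at day 0. Here every day 0 library had more peaks than either day 3 library, but the lists differed in length. Per 100000 peaks of the library the days overlapped, with 14.1 and 10.3 at day 3 and 15.8 and 9.85 at day 0.

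A further pair of loci had few peaks at day 3. At chr16:22251994-22257597 on the minus strand, 3 members at day 3 and 15 at day 0 were found, with 5 and 14 outside peaks at day 3 and 21 and 25 at day 0. At chrX:100407626-100421531 on the minus strand there were 2 members at day 3 and 9 at day 0, with 3 and 10 outside peaks at day 3 and 19 and 27 at day 0. The peak numbers of the days, unscaled for list length, did not overlap at either locus. Both loci ranked high through their day 0 members, which the rule chose from these same peaks. How many of all features separate in this way was not counted.

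Members lay close to row edges of their strand, both downstream of listed ends and upstream of listed starts. At day 3, 57.6% (53.2% to 61.9%) lay within 5 kb downstream of a same-strand end, and at day 0, 67.6% (64.8% to 70.4%). Of all strand positions outside the rows, sampled every 100 bp, 4.23% did. Much of that contrast was shared by outside peaks found in 1 library only, of which 44.4% and 38.1% lay there at day 3 and 43.0% and 45.2% at day 0. Without the chromosome 8 stretch the shares of members were 63.2% at day 3 and 73.5% at day 0. The median distance was 2550 bp at day 3 and 1909.5 bp at day 0, against 6618 to 10656 bp in the 4 sets of peaks found in 1 library only and 171900 bp for sampled positions. The lists of each day gave different shares: 44.1% of day 3 members lay within 5 kb of an end listed at day 3, and 65.4% of day 0 members within 5 kb of an end listed at day 0.

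Fewer members lay per Mb of strand at greater distance. At day 3 it was 4.81 in the first kb, 2.13 in the next and 0.0392 beyond 100 kb. At day 0 it was 11.4, 5.06 and 0.0671 at the same distances. Members within the first kb numbered 174 at day 3 and 412 at day 0, with or without the chromosome 8 stretch. Beyond 100 kb they numbered 87 at day 3 and 149 at day 0, but 47 and 60 without the stretch.

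**Figure D4:**
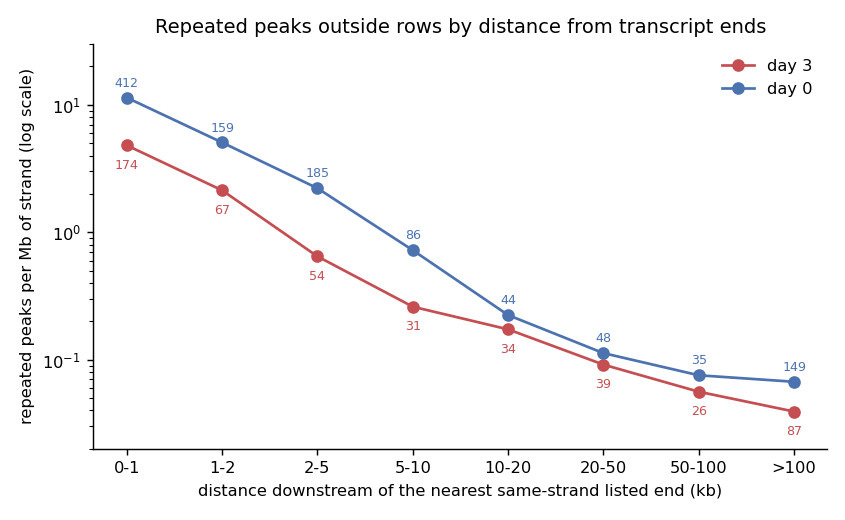
Members per Mb of strand (log y axis) by distance in kb downstream of the nearest same-strand listed end (x axis), for day 3 (red) and day 0 (blue), with the number of members at each point. Both days are highest in the first kb, with 4.81 per Mb at day 3 and 11.4 at day 0, and lowest, at 0.0392 and 0.0671, beyond 100 kb. The chromosome 8 stretch is included.

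Many members sat in gaps between rows on the same strand. With an end within 5 kb on one side and a start within 5 kb on the other, such members made up 38.1% at day 3 and 48.7% at day 0, or 41.8% and 52.9% without the stretch. Peaks outside the rows that were found in 1 library only lay there in a smaller share, at 19.8% and 17.1% for day 3 and at 18.7% and 20.8% for day 0. Of sampled positions, 0.673% did. The median gap was 2206 bp for 195 members at day 3 and 2225 bp for 544 at day 0. The rows next upstream of these members were short. For day 3 members 144 such rows had a median length of 561.5 bp, and for day 0 members 380 had one of 636 bp. Medians over all rows were 1387 bp in the day 3 list and 822 bp in the day 0 list. Since an end listed at either day counted, the upstream rows of a day's members can come from both lists. The median FPKM of the upstream rows was 11.6 for day 3 members and 10.52 for day 0 members. Over all rows it was 10.31 in the day 3 list and 7.64 in the day 0 list.

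Other positions were rarer. Members downstream of an end only made up 19.5% at day 3 and 18.96% at day 0, and members upstream of a start only 9.57% and 6.62%. Without the stretch these were 21.4% and 20.6% downstream only and 10.5% and 7.20% upstream only. Of sampled positions, 3.55% lay downstream only and 2.88% upstream only. Members between rows, 38.1% at day 3 and 48.7% at day 0, also lay within 5 kb upstream of a start. Nearness was therefore not particular to transcript ends. A start on the opposite strand, as at divergent promoters, lay within 5 kb of 14.6% at day 3 and 10.5% at day 0, or 16.1% and 11.4% without the stretch. Outside peaks found in 1 library only had such a start at 11.4% and 11.6% for day 3 and at 10.1% and 9.98% for day 0, near the member shares, and 3.55% of sampled positions did. No row edge of these kinds lay within 5 kb of 28.5% of members at day 3 and 23.1% at day 0, or 21.6% and 16.3% without the stretch. Of the 100 loci at least 50 kb from any row, 45 lay in the stretch.

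**Figure D5:**
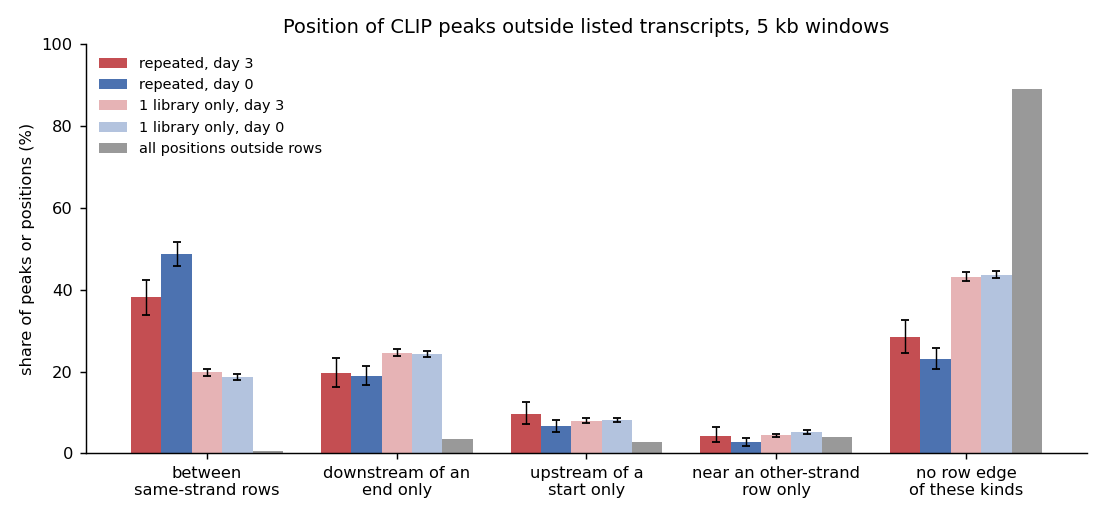
Share in percent (y axis) of members, of outside peaks found in replicate 1 only and of sampled positions outside the rows, by position relative to row edges within 5 kb (x axis), day 3 in red shades and day 0 in blue, with exact 95% intervals on the peaks. Members lie between same-strand rows at 38.1% at day 3 and 48.7% at day 0, against 0.673% of sampled positions.

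A smaller share of members than of inside peaks had a counterpart at the other day. At day 3, 47.1% of members (42.7% to 51.5%) were overlapped on the same strand by a day 0 peak of either library, against 54.6% of repeated inside peaks. At day 0, 31.9% (29.2% to 34.8%) were overlapped by a day 3 peak, against 45.4% inside. The other day's lists differ in length, so the shares of the 2 days are not on one scale. Outside peaks of replicate 1 alone were matched in 9.46% at day 3 and 5.65% at day 0. Present in all 4 libraries were 95 day 3 members (18.6%) and 98 day 0 members (8.77%). Counted by locus, 157 of 364 loci (43.1%) at day 3 and 233 of 737 (31.6%) at day 0 held a shared member. Within 5 kb downstream of an end, 53.2% of day 3 members were shared, against 38.7% farther off, while at day 0 the values were 32.4% and 30.9%.

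Some loci held no outside peak of the other day, 173 of the 364 with day 3 members and 443 of the 737 with day 0 members. The rule chose loci by their peaks at a day, and 705 of all 973 loci held a single member. The share of all features with peaks at only 1 day was not counted, so these numbers describe the lists and set members apart from nothing. The one with the most members was a day 0 locus, chrX:7634575-7636759 on the plus strand, with 8 members, no peak in either day 3 library and 10 peaks in each day 0 library. It began 290 bp beyond a row listed at day 0 only, with FPKM of 8.82. A day 0 locus at chr11:100322099-100322858 on the minus strand had 4 members and 4 and 4 peaks at day 0, and no peak at day 3. Day 3 loci of this kind held at most 2 members. At chr7:31517889-31517993 on the plus strand there were 2 members, with 2 and 1 peaks at day 3 and none at day 0.

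The difference between days was fitted with limma on CLIP peak bases over 18910 features, listed regions and outside loci together. None passed an adjusted p of 0.05 (0%), the lowest Benjamini-Hochberg adjusted p being 0.489, while 1855 had an unadjusted p under 0.05. Of these features 833 held members, with a median log2 difference of -0.62 for day 3 minus day 0, against -0.05 over all features. Since more members were chosen at day 0 from the same lists, that difference is not independent of the rule. The chromosome X locus at 100407626 had a log2 difference of -2.35 ± 0.44 (SE, limma adjusted p = 0.489), and the chromosome 16 locus one of -1.05 ± 0.37 (SE, limma adjusted p = 0.489). The chromosome 9 locus differed by -0.32 ± 0.41 (SE, limma adjusted p = 0.936). Without day 0 replicate 1, which leaves 1 library at day 0, the chromosome X locus had a log2 difference of -2.13 and the chromosome 16 locus one of -0.75. With features seen in at least 1 library, 67 of 39033 were called, and 3 of the 837 that held members. Among these was the chromosome X locus at 100407626 (limma adjusted p = 0.00303). That locus was named for its members, mostly of day 0 and chosen from the same peaks, so its value is not independent of the rule either.

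The ChIP shares inside the rows lay within the intervals of those outside. At day 3, 34 of 512 members (6.64%, 4.64% to 9.16%) overlapped a CTCF ChIP peak, against 5.06% of repeated inside peaks. At day 0, 64 of 1118 (5.72%, 4.44% to 7.25%) overlapped a ChIP peak that both day 0 libraries listed, against 5.62% inside. Outside peaks of replicate 1 alone gave 6.15% at day 3 and 6.68% at day 0. Sampled positions outside the rows overlapped a ChIP peak in 2.64% at day 3 and 2.55% at day 0, but those within 5 kb downstream of an end did so in 7.73% and 8.04%. Members within 5 kb downstream of an end did so in 6.44% (3.92% to 9.88%) at day 3 and 5.69% (4.15% to 7.59%) at day 0. At day 0 the share depended on the ChIP list, with 5.55% for replicate 1 alone and 15.5% for replicate 2 alone.

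The 98 members with a ChIP peak lay in 71 loci, of which 14 held several. Apart from the chromosome 9 locus, chr19:18751191-18763351 on the plus strand held 3, with 1 and 12 outside CLIP peaks at day 3 and 5 and 11 at day 0. At chr16:55967343-55970144 on the plus strand there were also 3, with 2 and 2 outside peaks at day 3 and 2 and 3 at day 0. Each of the 3 ChIP libraries had a peak in both loci.

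The median score and width of member peaks were close to those of inside peaks. The score is the authors' own value. Its median outside was 664 and 426 at day 3 and 644.5 and 341 at day 0, while inside it was 672 and 461 at day 3 and 661 and 363 at day 0. The log2 difference averaged -0.06 ± 0.045 (SD, n = 4 libraries) and was lower outside in 4 of 4 (exact two-sided sign-flip permutation p = 0.125, the smallest 4 libraries allow). That test takes the 4 libraries as independent, but the 2 libraries of a day score the same overlapping pairs, so it rests on 2 comparisons and is read as a description. Width differed by -0.08 ± 0.092 on the log2 scale (SD, n = 4 libraries), lower in 3 and equal in 1 (exact permutation p = 0.25).

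By chromosome, members made up 3.59% of repeated peaks on X at day 3, against 4.06% on the autosomes. At day 0 the shares were 5.47% on X and 5.51% on the autosomes. Without the chromosome 8 stretch the autosomal shares were 3.69% at day 3 and 5.06% at day 0, so that at day 0 the autosomes lay below X in place of above it. All autosomal shares lay within the 95% intervals of those on X, 2.40% to 5.15% at day 3 and 4.34% to 6.78% at day 0.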

How the data were processed

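Of 16 samples, 9 had files used here: 4 CLIP, 3 ChIP and 2 RNA-seq libraries, grouped by sample title. The submitters' processing notes name build mm9 and, without role or order, Cufflinks 2.1.1, bedtools 2.17.0, TopHat2 2.0.8, SAMtools 0.1.18, Novoalign 3.00.03, cutadapt 1.0 and Trim Galore 0.3.3. Which program called peaks is not stated in those notes or labels. The deposited peak lists, made per library, hold a score per peak, and the deposited RNA-seq rows a value taken as FPKM because Cufflinks gives that unit. The allelic lists were not used.

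Chromosomes 1 to 19 and X were kept, which left out 4 CLIP peaks and 9 rows. Overlap meant at least 1 bp. Limma 3.58.1 in R 4.3.3 compared log2(peak bases per Mb of peak bases + 1) on features that had peaks in 2 or more libraries, adjusted by Benjamini-Hochberg over all of them. Differences on this log2 scale are too small for features with few peak bases. On simulated data for this comparison over 18910 features, 24.5% of changes of log2 3 and 74% of log2 6 were recovered. Python 3.11.15 with pandas 2.3.3, NumPy 2.4.6 and SciPy 1.17.1 did the rest. Nothing says that replicates were separate cultures, so p-values reflect the spread of these libraries alone, and it may be technical.

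Named loci were the 10 with the most members, and the 5 with the most members among those at least 50 kb from any row, those within 5 kb downstream of an end, those of each day alone and those with ChIP overlap; some are printed. The members, lists and tests were chosen with earlier results of these data known. Alternatives covered overlap, score, windows, locus gap, pseudocount, filter, scaling, leaving out each library and a replicate block.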

Additional observations from a re-analysis of the deposited data

How the results depend on the processing

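The shares use both replicates of a day and so have 1 value each; an alternative counted as a move when it left the exact 95% interval of the reported share. This criterion replaced a narrower one, the SD between the replicate 1 and replicate 2 queries, after its outcome had been seen. The narrower one marked 37 alternatives of the shares as moved and the interval marked 23, so the other values are printed too. Members numbered 206 at day 3 and 400 at day 0 with an overlap of at least 50% of both peaks (467 loci), 266 and 562 with rows extended by 1 kb, and 182 and 448 with peaks at or above the median score. With 1 library alone they ranged from 10223 to 17746 at day 3 and from 12687 to 23597 at day 0. The downstream share was 34.0% at day 3 and 36.9% at day 0 within 1 kb, 70.3% and 79.2% within 20 kb, and 63.2% and 73.5% without the chromosome 8 stretch. Leaving out a replicate gave 38.6% to 45.0% at day 3 and 45.1% to 46.3% at day 0. Sharing was 21.1% at day 3 and 10.3% at day 0 with repeated peaks of the other day, 24.0% and 14.2% with an overlap of at least 50% of both peaks, and 28.5% to 37.1% and 19.2% to 21.5% with 1 library of the other day. ChIP overlap was 4.10% at day 3 and 3.13% at day 0 with high-scoring ChIP peaks, 10.9% and 10.4% within 1 kb, and 15.5% at day 0 with ChIP replicate 2 alone. Values that moved only by the narrower criterion were downstream shares of 56.9% at day 3 and 67.5% at day 0 from replicate 2, 56.9% and 65.7% by locus and 67.4% at day 0 joined at 10 bp. They also included sharing at day 3 of 43.1% by locus and 48.2% without the stretch. For ChIP overlap they were 6.69% at day 3 and 5.67% at day 0 from replicate 2, 7.97% and 6.65% by locus, 6.21% and 5.64% without the stretch, and 5.55% at day 0 with ChIP replicate 1. Leaving out the stretch, at which sharing was 31.9% at day 0, and joining at 10 bp were added after seeing the data.

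Limma called 67 features with peaks in at least 1 library, and 0 to 691 when a library was left out, where the lone library of a day is assumed to vary like the other day. Same-numbered replicates shared only a number (r = 0.02 between their deviations over 18910 features), and the replicate block called 0 features (lowest adjusted p 0.378, 2349 unadjusted). The sign of 4 uncalled loci turned: with a library left out, the chromosome 9 locus ranged from -0.86 to 0.23 (the higher without day 3 replicate 1) and the minus-strand chromosome 1 locus from -0.37 (without day 0 replicate 2) to 2.07, with -0.21 by peak number. The chromosome 12 locus ranged from -0.75 to 0.40 (without day 3 replicate 2; 0.15 without day 0 replicate 1), and the plus-strand chromosome X locus from -0.69 to 0.14 (without day 0 replicate 1). The causes were not tested. Read depth is unknown, so a peak missing from a list does not show that RNA was not bound.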
